A study of Mus musculus with 6 samples.

Results

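DEAD and DEAH box proteins are RNA helicases, named after the amino acids of their ATP-binding motif. They use ATP to open RNA duplexes or to strip proteins from RNA. Many DEAD box members act in the nucleolus on the precursor of ribosomal RNA, several DEAH box members drive the rearrangements of the spliceosome, and others serve mRNA export, translation, decay or antiviral sensing. The genes were taken by name: protein-coding mouse genes whose symbol starts with Ddx or Dhx and a digit, leaving out the RNA sensors Ddx58 and Dhx58, with 60 or more counts summed over the 6 libraries. That gave 49 of the 25044 genes in the table, 34 with a Ddx and 15 with a Dhx symbol. The lowest totals inside the limit were 240 counts for Ddx11 and 652 for Ddx59, and Ddx43 with 7 and Ddx25 with 1 lay outside it. All 49 were tested. From textbook roles, and with earlier results of these data known, they were put in 3 classes, 16 nucleolar, 12 splicing and 21 other helicases.

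The cells were adherent peritoneal macrophages of wild-type C57BL/6 mice aged 8 weeks, collected 3 days after intraperitoneal thioglycollate, which recruits monocyte-derived macrophages. After 1 h of adherence and a further 24 h in culture they were given DMSO vehicle or 100 nM trametinib, an inhibitor of the ERK-activating kinases MEK1 and MEK2. LPS, the bacterial ligand of TLR4, followed 2 h later at 100 ng/ml for 12 h in every culture. Each group had 3 libraries, the study used 3 mice in all, and no culture went without LPS, so values describe trametinib on top of LPS. The comparison addresses which helicase transcripts differ with trametinib in LPS-treated macrophages. RNA was pooled over all cells of a culture, so fewer cells of a type and less RNA per cell cannot be told apart.

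Library totals ran from 17453778 to 19648467 counts. Summed macrophage markers (6 genes) lay at 14474 to 15863 counts per 1000000 (CPM) with vehicle and 13319 to 14679 with trametinib. Of these 6, 2 were lower (Adgre1 and Itgam) and 1 higher (Mertk) with trametinib. The 7 neutrophil markers summed to 2.90 to 7.90 CPM over the 6 libraries, with Retnlg at 0. Vehicle replicate 3 stood nearer to the trametinib libraries than the other vehicle libraries did, at −16.2 on the first principal component against −39.3 and −38.1. Summed proliferation markers, nearly all Mki67, were also higher in it, at 150 CPM against 73.5 and 74.8 in vehicle replicates 1 and 2. With trametinib they stood at 120, 111 and 158 CPM in replicates 1, 2 and 3. Nuclear-retained RNAs (Malat1, Neat1 and Kcnq1ot1) summed to 1453, 1355 and 1923 CPM with vehicle and 1710, 1431 and 2064 CPM with trametinib. Both sums were highest in replicate 3 of each group. Whether these differences play a part in the helicase values was not tested, and counts without vehicle replicate 3 are given below.

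With trametinib 18 of the 49 helicase genes fell, 3 rose and 28 did not pass an adjusted p of 0.05. Among all 11286 genes tested, 18.4% fell and 15.8% rose. The falls were shared unevenly between the classes. Of the nucleolar helicases 11 of 16 fell (68.8%), of the splicing helicases 5 of 12 (41.7%) and of the others 2 of 21 (9.52%). A log2 fold change below 0 was seen in 38 members, and in 50.8% of all tested genes. No nucleolar or splicing helicase rose, and the 3 risers were Ddx4, Ddx60 and Dhx40. The median log2 fold change of trametinib over vehicle was −0.55 for nucleolar, −0.20 for splicing and −0.07 for other helicases, beside −0.01 for all genes tested. The changes were mostly small in size: 8 members fell at least 1.5-fold, 7 of them nucleolar, where 8.44% of all tested genes did, and none fell 2-fold. The groups did not overlap in 25 members that were lower and 3 that were higher with trametinib, against 25.9% and 23.4% of all tested genes. By name, 14 of 34 Ddx genes fell and 2 rose, and 4 of 15 Dhx genes fell and 1 rose. Without vehicle replicate 3 the counts were 20 lower and 4 higher, with 10 nucleolar, 7 splicing and 3 other helicases lower.

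**Figure D1:**
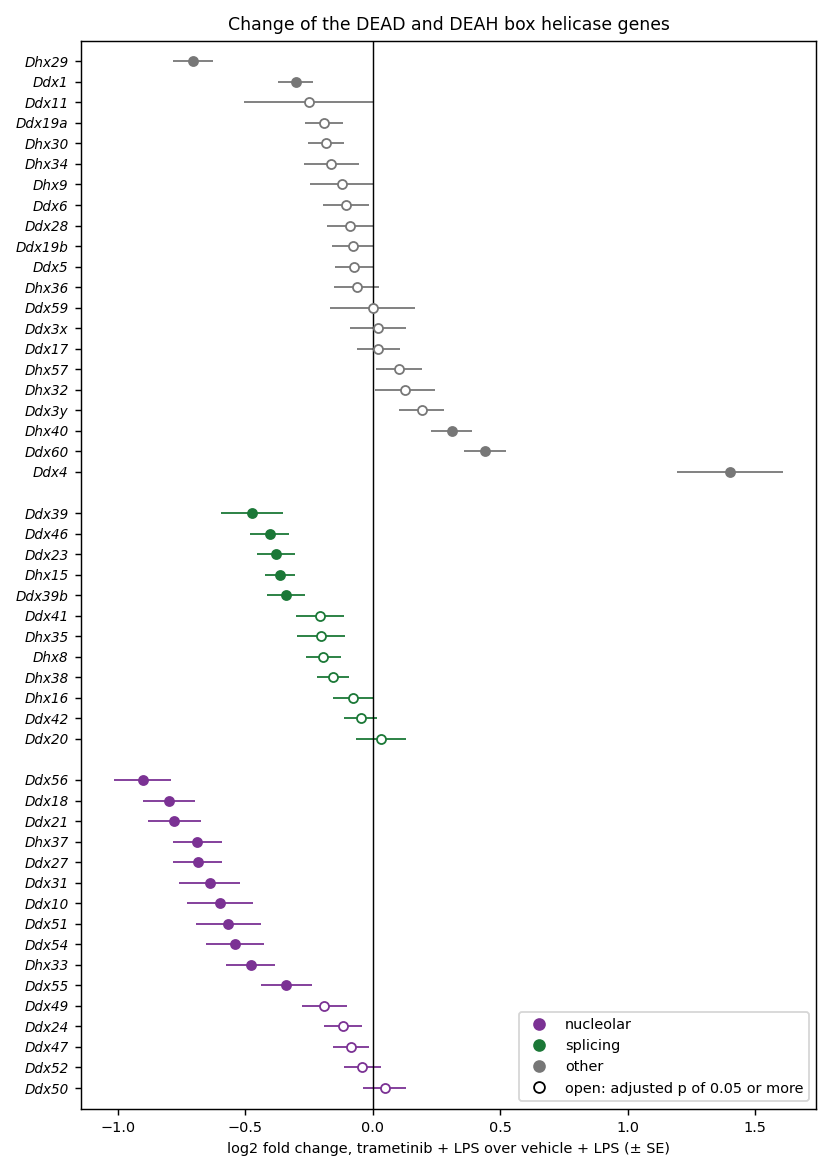
Log2 fold change of trametinib + LPS over vehicle + LPS (x axis) with its standard error for each of the 49 helicase genes (y axis), grouped by class, with filled points for an adjusted p under 0.05. The nucleolar genes run from −0.90 (Ddx56) to 0.05 (Ddx50), the splicing genes from −0.47 to 0.03, and the others from −0.70 (Dhx29) to 1.40 (Ddx4).

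Promoter sequences are shown for 5 members whose promoter holds a match to a motif searched, the 2 members with the highest log2 fold changes and 3 nucleolar ones that fell. Each stretch is the 100 bases before the start site of the RefSeq entry, 5′ to 3′ on the gene's strand, build GRCm38.p6 (mm10), and capitals mark the match. The core of the interferon-stimulated response element (GAAA, any 2 bases, GAAA) appears in Ddx60, the E-box CACGTG in Ddx4 and Dhx33, the ETS site CCGGAAGT in Dhx37 and the cAMP response element TGACGTCA in Ddx51.
Ddx60 (chr8:61927987-61928086, plus strand): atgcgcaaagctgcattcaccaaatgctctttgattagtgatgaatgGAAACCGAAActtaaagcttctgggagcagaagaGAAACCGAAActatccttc
Ddx4 (chr13:112652311-112652410, minus strand): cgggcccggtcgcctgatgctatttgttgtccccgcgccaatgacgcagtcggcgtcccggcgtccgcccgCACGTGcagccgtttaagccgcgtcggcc
Dhx37 (chr5:125434049-125434148, minus strand): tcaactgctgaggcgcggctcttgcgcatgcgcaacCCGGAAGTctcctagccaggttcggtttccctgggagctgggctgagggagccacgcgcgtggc
Ddx51 (chr5:110653351-110653450, plus strand): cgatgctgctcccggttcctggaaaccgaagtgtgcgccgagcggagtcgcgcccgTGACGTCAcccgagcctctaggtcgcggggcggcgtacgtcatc
Dhx33 (chr11:71004433-71004532, minus strand): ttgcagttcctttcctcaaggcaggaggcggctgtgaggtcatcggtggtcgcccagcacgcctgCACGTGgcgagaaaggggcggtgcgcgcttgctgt

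The Ddx60 promoter holds 2 copies of GAAACCGAAA, starting 53 and 19 bases before the start site. The 4 motifs were searched on either strand in windows from 250 bases before to 50 bases after each RefSeq start, and a match to CACGTG or TGACGTCA, which read alike on both strands, was counted once. RefSeq windows were found for 44 of the 49 members (not for Ddx6, Ddx11, Ddx23, Ddx39 and Dhx38). A CACGTG was present in 1 of 16 nucleolar, 2 of 9 splicing and 3 of 19 other helicases, and in 12.1% of 9031 tested genes with a window (7.15% of all 32851 promoters). CCGGAAGT was present in 4, 2 and 4 of them, beside 9.91% of tested genes (3.89% of all promoters). Of the 4 nucleolar genes with CCGGAAGT, Dhx37 and Ddx27 fell, whereas Ddx47 and Ddx50 did not pass. TGACGTCA was found in 2 nucleolar (Ddx49 and Ddx51), 0 splicing and 3 other helicases, beside 3.70% of tested genes (1.79% of all promoters). The interferon core was found in Ddx49 and Ddx60, beside 4.15% of tested genes (3.44% of all promoters). The nucleolar genes Ddx56, Ddx18, Ddx21, Ddx10, Ddx31, Ddx54 and Ddx55 fell and had no match to any of the 4 motifs. All matches given here are of letters and show no binding. The RefSeq start of Ddx4 lies 165 bases inside the gene as GENCODE draws it.

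Nucleolar helicases showed the widest falls. Ddx56, needed for assembly of the large ribosomal subunit (mm10 chromosome 11, 6258919 to 6267772), stood at 26.1, 24.8 and 20.7 CPM in vehicle replicates 1, 2 and 3 and at 12.2, 12.1 and 14.0 CPM in the trametinib replicates. Every trametinib value lay below every vehicle value, and the gene fell by 0.90 in log2 (adjusted p 0.000673, SE 0.11). Ddx18, which acts in processing of large-subunit ribosomal RNA (chromosome 1, 121553835 to 121567989), stood at 29.4, 32.5 and 30.3 CPM with vehicle and at 16.8, 16.0 and 20.2 CPM with trametinib. It fell by 0.80 (adjusted p 0.000810, SE 0.10), with groups that did not overlap. Ddx21 links transcription by RNA polymerase I to ribosomal RNA processing (chromosome 10, 62580251 to 62602281). Its vehicle values were nearly the same, at 88.8, 88.9 and 88.7 CPM, and its trametinib values were 48.0, 46.2 and 61.3 CPM. Ddx21 fell by 0.78 (adjusted p 0.000918, SE 0.10), and trametinib replicate 3 was the highest of the treated libraries for Ddx56, Ddx18 and Ddx21 alike.

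Dhx37 releases the U3 small nucleolar RNA from the precursor of the small subunit. It fell from 19.3 ± 0.968 to 12.0 ± 1.09 CPM (adjusted p 0.00120, mean ± SD of n = 3 libraries in each group). Ddx27, which acts with a large-subunit processing complex, fell from 26.1 ± 1.96 to 16.2 ± 1.43 CPM (adjusted p 0.00115). Ddx54, of large-subunit assembly, fell from 55.3 ± 6.56 to 38.1 ± 4.59 CPM (adjusted p 0.00725). An antisense gene lies over 14.2% of the exon bases of Ddx54 and was not analysed here, and whether reads were assigned by strand is not stated. Ddx31, Ddx10 and Ddx51 fell by 0.64, 0.60 and 0.57 in log2 (adjusted p 0.00416, 0.00738 and 0.00928). Ddx51 is known for removing the U8 small nucleolar RNA from large-subunit precursors, and Ddx10 acts in the small-subunit processome. Dhx33, a cofactor of ribosomal RNA transcription, fell by 0.48 (adjusted p 0.00522, SE 0.09).

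Ddx55, of large-subunit maturation, was the weakest call among the nucleolar genes. It stood at 10.4, 10.3 and 11.5 CPM with vehicle and 8.34, 8.60 and 8.52 CPM with trametinib and fell by 0.34 (adjusted p 0.0287, SE 0.10). Its groups did not overlap. The call was lost with DESeq2 (adjusted p 0.113) and without any 1 of the 6 libraries (adjusted p 0.0533 to 0.0913), and the lowest adjusted p of any alternative was 0.0277. The other 10 nucleolar calls passed under each of the 13 alternatives.

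The 5 nucleolar helicases that did not pass were Ddx49, Ddx24, Ddx47, Ddx52 and Ddx50, at −0.19, −0.12, −0.08, −0.04 and 0.05 in log2 (adjusted p 0.126 to 0.702). Ddx24, at 184 ± 3.01 CPM with vehicle and 170 ± 10.2 CPM with trametinib, had the highest level per kilobase of exon among the nucleolar genes in vehicle, at 22.3 CPM per kilobase. Homer3 lies over 29.8% of the exon bases of Ddx49 on the opposite strand, which makes the Ddx49 value uncertain. Split by the ribosomal subunit that their best-known roles serve, 7 of 8 large-subunit helicases fell (all but Ddx24). Of 5 small-subunit helicases 2 fell (Ddx10 and Dhx37), beside 18.4% of all tested genes. Ddx21, Ddx50 and Dhx33 were placed with neither subunit. This split was made after the values were seen and has no test.

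**Figure D2:**
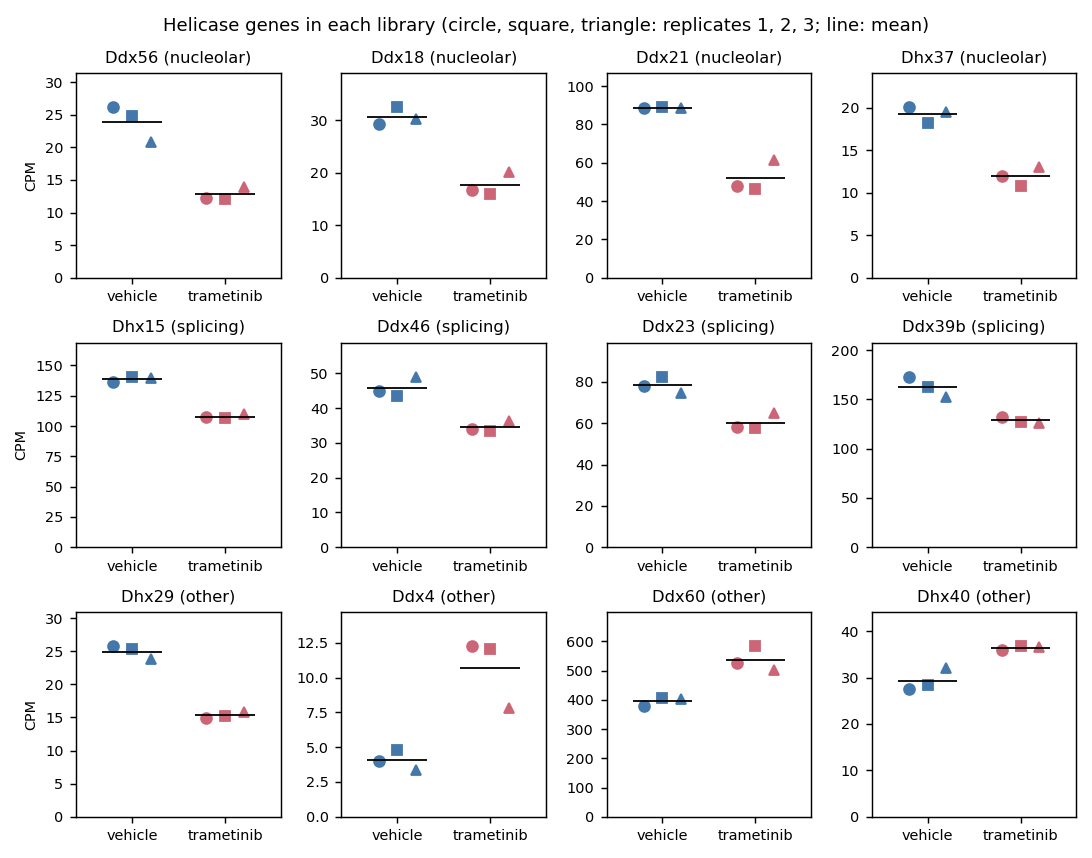
CPM (y axis, from 0) of 12 helicase genes in the vehicle and trametinib libraries, with a circle, square and triangle for replicates 1, 2 and 3 and a line at the group mean. The groups do not overlap in any of the 12, which were chosen for passing the test, and trametinib replicate 3 lies nearest to vehicle for Ddx21 (61.3 CPM) and Ddx4 (7.80 CPM).

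Ddx21 and Ddx50 are neighbouring paralogs, 13.6 kb apart on chromosome 10, and their products are alike in sequence. Ddx50 stood at 31.2, 29.7 and 34.6 CPM with vehicle and 31.2, 34.3 and 33.3 CPM with trametinib, so its groups overlapped while those of Ddx21 did not. Per kilobase of exon, Ddx21 was 5.56, 5.85 and 5.01 times as high as Ddx50 in the vehicle libraries. In the trametinib libraries it was 3.01, 2.64 and 3.60 times as high. The size of this ratio depends on the exon bases annotated, 5177 for Ddx21 and 10129 for Ddx50. The mean ratio was 5.48 ± 0.427 with vehicle and 3.08 ± 0.485 with trametinib. Of 5 paralog pairs compared this way, 3 had ratios that did not overlap between the groups. Each gave an exact permutation p of 0.1, two-sided, the smallest that 3 against 3 libraries allow (adjusted 0.167 over the 5 pairs). The pairs were compared after the values were seen, and no such share was computed over other gene pairs. Besides Ddx21 to Ddx50, the ratios without overlap were those of Ddx3x to Ddx3y and of Ddx5 to Ddx17. Ddx3x to Ddx3y was 2.84 ± 0.142 with vehicle and 2.52 ± 0.116 with trametinib, and Ddx5 to Ddx17 was 2.58 ± 0.122 and 2.42 ± 0.0427. The ratios of Ddx39b to Ddx39 (4.52 ± 0.608 and 4.92 ± 0.401) and of Ddx19a to Ddx19b (2.63 ± 0.289 and 2.42 ± 0.116) overlapped. Reads from near-identical stretches of paralogs could be split or dropped in counting, which makes these ratios less certain than single-copy values.

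**Figure D3:**
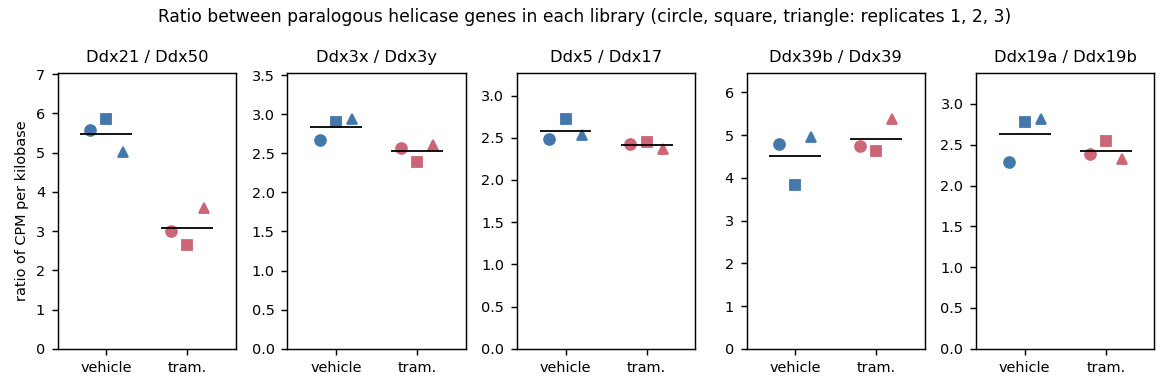
Ratio of CPM per kilobase of exon between 2 paralogous helicase genes (y axis, from 0) in each library, with a circle, square and triangle for replicates 1, 2 and 3 and a line at the group mean. Ddx21 to Ddx50 lies at 5.01 to 5.85 with vehicle and 2.64 to 3.60 with trametinib, while Ddx39b to Ddx39 and Ddx19a to Ddx19b overlap between groups.

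Among the splicing helicases, 5 genes that act in early spliceosome assembly, mRNA export and spliceosome release fell, by 0.34 to 0.47 in log2. Dhx15, which takes spliceosomes apart after splicing and also acts in ribosome assembly (chromosome 5, 52150203 to 52190514), stood at 136, 141 and 139 CPM with vehicle and 107, 106 and 110 CPM with trametinib. The groups were tight and well apart, and Dhx15 fell by 0.36 in log2 (adjusted p 0.00243, SE 0.06). Ddx46, which helps the U2 particle bind the branch point, stood at 44.9, 43.4 and 49.0 CPM with vehicle and 33.8, 33.5 and 36.4 CPM with trametinib. It fell by 0.40 (adjusted p 0.00447, SE 0.08), without overlap. Ddx23, which hands the 5′ splice site from the U1 to the U6 particle, stood at 78.0, 82.4 and 74.5 CPM with vehicle and 58.1, 57.6 and 64.9 CPM with trametinib. It fell by 0.38 (adjusted p 0.00477, SE 0.07), again without overlap.

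Ddx39b, which acts in early splicing and loads export factors on mRNA, fell from 163 ± 10.2 to 129 ± 3.37 CPM (adjusted p 0.00766). Its paralog Ddx39 fell by 0.47 (adjusted p 0.0182, SE 0.12). That call was lost on leaving out vehicle replicate 1 (adjusted p 0.0520), vehicle replicate 2 (0.0559), trametinib replicate 2 (0.0505) or trametinib replicate 3 (0.0578), while the other alternatives reached as low as 0.00117. Adgre5 lies over 17.4% of the exon bases of Ddx39 on the opposite strand. It went the other way, from 46.3 to 63.8 CPM with vehicle to 103 to 134 CPM with trametinib, and its part in the Ddx39 value was not tested.

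Of the 4 DEAH box ATPases that drive successive steps of the spliceosome, only Dhx15 passed the test. Among all tested genes 34.3% passed in either direction. Dhx8, Dhx38 and Dhx16 came to −0.19, −0.15 and −0.08 in log2 (adjusted p 0.0605, 0.0866 and 0.475). Dhx8, which releases spliced mRNA, fell once the replicate number was a block (adjusted p 0.0307) and with trametinib replicate 3 left out (0.0475), and reached 0.181 at the other end of the alternatives. Dhx38 and Ddx41, a helicase of the catalytic spliceosome, fell without vehicle replicate 3 (adjusted p 0.0250 and 0.00775, against up to 0.263 and 0.350 under other alternatives). Ddx41 had 33.8 CPM in vehicle replicate 3 against 42.2 and 41.5 in the other vehicle libraries and 33.6 to 34.2 with trametinib. Another gene, not analysed here, lies over part of the Ddx41 exons. Dhx35, Ddx42 and Ddx20, the last a part of the complex that builds splicing particles, came to −0.20, −0.05 and 0.03 in log2 (adjusted p 0.132, 0.604 and 0.819).

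**Figure D4:**
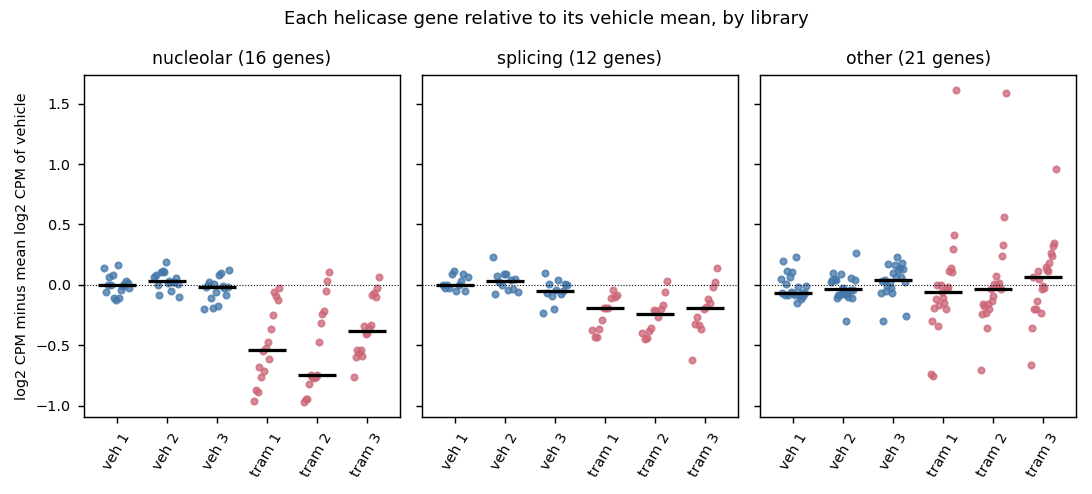
Log2 CPM of each helicase gene minus its mean log2 CPM in vehicle (y axis) in each of the 6 libraries (x axis), by class, with a line at the median. The nucleolar medians are −0.54, −0.75 and −0.38 in trametinib replicates 1, 2 and 3, the splicing medians −0.19, −0.25 and −0.19, and the medians of the others −0.06, −0.04 and 0.07.

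Summed over their genes, the nucleolar helicases went from 641, 647 and 620 CPM in the vehicle libraries to 492, 470 and 528 CPM in the trametinib libraries. The splicing helicases went from 825, 831 and 785 to 680, 663 and 689 CPM. Neither sum overlapped between the groups. The sum of the other helicases did overlap, at 2374, 2398 and 2617 CPM with vehicle and 2472, 2545 and 2615 CPM with trametinib. It was carried largely by Ddx5, Ddx17 and Ddx60. In 11 of the 16 nucleolar genes trametinib replicate 3 was the trametinib library nearest to the vehicle mean.

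Outside the nucleolus and the spliceosome, 2 helicases fell. Dhx29, which sits on the small ribosomal subunit and helps it scan structured leaders of mRNAs (chromosome 13, 112927454 to 112969432), stood at 25.7, 25.3 and 23.8 CPM with vehicle and 14.9, 15.3 and 15.8 CPM with trametinib. The groups lay well apart, and Dhx29 fell by 0.70 (adjusted p 0.000460, SE 0.08), the smallest adjusted p among the members. Ddx1, part of the ligase complex that joins tRNA exons during splicing, fell from 58.9 ± 2.41 to 47.7 ± 1.91 CPM (adjusted p 0.00932).

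Ddx4, the vertebrate Vasa gene known for its role in germ cells, was the member with the highest rise. It had 71, 86 and 62 counts in the vehicle libraries and 207, 224 and 140 in the trametinib libraries, or 3.98, 4.80 and 3.35 against 12.2, 12.0 and 7.80 CPM. Trametinib replicate 3 was lower than the other treated libraries and still above every vehicle library. Ddx4 rose 2.64-fold (adjusted p 0.00153, log2 fold change 1.40, SE 0.21), from a low level of 1.34 CPM per kilobase of exon in vehicle. On chromosome 13 it lies 275 kb from Dhx29, which fell.

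Ddx60, an interferon-induced helicase of antiviral defence, stood at 378, 408 and 401 CPM with vehicle and 526, 582 and 503 CPM with trametinib. Every treated library was above every vehicle library, and it rose 1.36-fold (adjusted p 0.00397, SE 0.08 in log2). Per kilobase of exon it had the third highest level of all members in vehicle, at 45.5 CPM per kilobase, after Ddx5 and Ddx17. Dhx40 rose from 29.3 ± 2.45 to 36.3 ± 0.452 CPM (adjusted p 0.0177, log2 fold change 0.31, SE 0.08). The Dhx40 call was lost on leaving out vehicle replicate 1 (adjusted p 0.0805), vehicle replicate 2 (0.0711), trametinib replicate 1 (0.0553) or trametinib replicate 2 (0.0531), and the lowest value of any alternative was 0.00294.

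Levels per kilobase of exon ran from 0.365 to 136 CPM in vehicle. Ddx5 and Ddx17, coregulators of transcription and splicing, stood at 136 and 52.7 CPM per kilobase in vehicle. Ddx5 had 747, 770 and 838 CPM with vehicle and 728, 734 and 779 CPM with trametinib, with overlapping groups (adjusted p 0.496, log2 fold change −0.07). Ddx17 came to 0.02 in log2 (adjusted p 0.860), and its sign turned when single libraries were left out. Of the 10 members with the highest levels per kilobase in vehicle, 2 fell (Ddx39b and Ddx21) and 1 rose (Ddx60). Of the 10 with the lowest levels 3 fell and 1 rose, and of the 29 between 13 fell and 1 rose, where 34.3% of all tested genes passed in either direction.

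Ddx3x, which helps translate mRNAs with structured leaders, stood at 169, 178 and 221 CPM with vehicle and 184, 188 and 205 CPM with trametinib. Its vehicle spread covered all treated values (adjusted p 0.907, log2 fold change 0.02, SE 0.11), and the sign turned without single libraries. Its Y-linked paralog Ddx3y stood at 62.3, 60.5 and 74.1 CPM with vehicle and 70.4, 77.2 and 77.3 CPM with trametinib (adjusted p 0.126, log2 fold change 0.19, SE 0.09). Without vehicle replicate 3, Ddx3y rose (adjusted p 0.00818, against up to 0.351 under other alternatives, log2 fold change 0.29). Ddx3y was present in all 6 libraries, and Xist, the RNA of the inactive X chromosome, reached at most 0.0561 CPM.

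Ddx6, which holds mRNAs in translational repression and promotes decapping, stood at 198, 179 and 192 CPM with vehicle and 169, 165 and 196 CPM with trametinib. The groups overlapped through trametinib replicate 3 (adjusted p 0.397, log2 fold change −0.10, SE 0.09). Dhx9, which unwinds RNA duplexes and RNA-DNA hybrids, stood at 83.9, 83.9 and 100.4 CPM with vehicle and 70.3, 79.7 and 96.6 CPM with trametinib. Replicate 3 was the highest library in either group, and the test was not passed (adjusted p 0.490, log2 fold change −0.12, SE 0.13).

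The export helicases Ddx19a and Ddx19b, which work at the nuclear pore and lie 5.39 kb apart, came to −0.19 and −0.08 in log2 (adjusted p 0.0811 and 0.492). Dhx30 and Ddx28, of mitochondrial ribosome assembly, had −0.18 and −0.09 (adjusted p 0.0711 and 0.493), and Dhx30 passed without vehicle replicate 3 (0.0490, against up to 0.207 under other alternatives). Dhx36, which resolves G-quadruplexes, had −0.06 and Dhx34, of nonsense-mediated decay, −0.16 (adjusted p 0.621 and 0.274). Ddx11, a DNA helicase of sister chromatid cohesion and the member with the fewest counts, had −0.25 with an SE of 0.25, so a change of that size was not detectable at its depth. Ddx59, Dhx57 and Dhx32 came to 0.00, 0.10 and 0.13 in log2 (adjusted p 0.415 to 0.999).

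RNA helicases of related families, named differently, were followed in a list of 20 genes. Of these 5 fell, 1 rose and 14 did not pass, beside 18.4% of all tested genes that fell and 15.8% that rose, and the median log2 fold change was −0.10. Eif4a1, the DEAD box subunit of the cap-binding translation factor, stood at 539, 556 and 478 CPM with vehicle and 366, 415 and 386 CPM with trametinib and fell by 0.43 (adjusted p 0.00594, SE 0.09). Eif4a3, the exon junction complex helicase, stood at 57.0, 55.9 and 51.8 against 41.7, 43.7 and 39.3 CPM and fell by 0.40 (adjusted p 0.00378, SE 0.07). Neither gene overlapped between the groups. Mov10, an antiviral helicase, rose from 302 ± 11.9 to 395 ± 28.9 CPM (adjusted p 0.00694). Once the replicate number was a block, 3 genes of the list rose and 6 fell. With DESeq2 3 genes fell. Leaving out trametinib replicate 1 gave 2 that fell, leaving out vehicle replicate 1, vehicle replicate 2 or trametinib replicate 2 gave 3 each, and leaving out vehicle replicate 3 gave 2 that rose.

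Helicases gain activity and direction from cofactors, many with a G-patch motif. Of 31 tested cofactors and partners 9 fell, 0 rose and 22 did not pass with edgeR, beside the same 18.4% and 15.8% of all tested genes. Under the alternatives 6 to 10 fell and 0 rose. The median log2 fold change was −0.13. Utp14a, which activates Dhx37, stood at 17.9, 18.0 and 17.7 CPM with vehicle and 8.52, 9.46 and 11.1 CPM with trametinib. It fell by 0.88 (adjusted p 0.000734, SE 0.11), beside the fall of 0.69 for Dhx37. Nkrf, Pinx1 and Gpatch4, nucleolar G-patch proteins that partner Dhx15, fell by 1.05, 1.15 and 1.23 (SE 0.16, 0.20 and 0.25, adjusted p 0.00179, 0.00324 and 0.00538), beside 0.36 for Dhx15. Nkrf stood at 4.49, 4.07 and 4.86 CPM with vehicle and 2.13, 1.99 and 2.34 CPM with trametinib, a low level with groups well apart. Pinx1 (4.80 ± 0.365 and 2.16 ± 0.559 CPM) and Gpatch4 (5.88 ± 1.38 and 2.50 ± 0.715 CPM) were also low. Their groups did not overlap, though for Gpatch4 replicate 3 came to 4.48 CPM with vehicle and 3.29 CPM with trametinib. None of the other 13 G-patch partners listed, most of them splicing factors, passed, with log2 fold changes of −0.30 to 0.21. This split of the partners was made after the values were seen and has no test.

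Of 3 export partners of Ddx39b 2 fell, beside 18.4% of all tested genes. Alyref, an adaptor that binds exported mRNA, fell by 0.57 and Thoc1, of the THO complex, by 0.51 (adjusted p 0.00561 and 0.00553). Thoc2 did not pass (log2 fold change −0.08). Of 5 partners of Ddx6 only Lsm14a, a protein of mRNA granules, fell (adjusted p 0.0268, log2 fold change −0.22), again beside 18.4%. That call was lost on leaving out any library but vehicle replicate 3 (adjusted p 0.0635 to 0.105). Rtcb, of the ligase complex of Ddx1, came to −0.18 in log2 (adjusted p 0.0697) and was not called, while Ddx1 was. Smn1, of the Ddx20 complex, fell by 0.37 (adjusted p 0.0352, passing under 8 of 13 alternatives), while Ddx20 had 0.03. Gemin2, of that complex, and Gle1, a partner of Ddx19b, had −0.36 and −0.25 (adjusted p 0.118 and 0.124) and were not called.

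**Figure D5:**
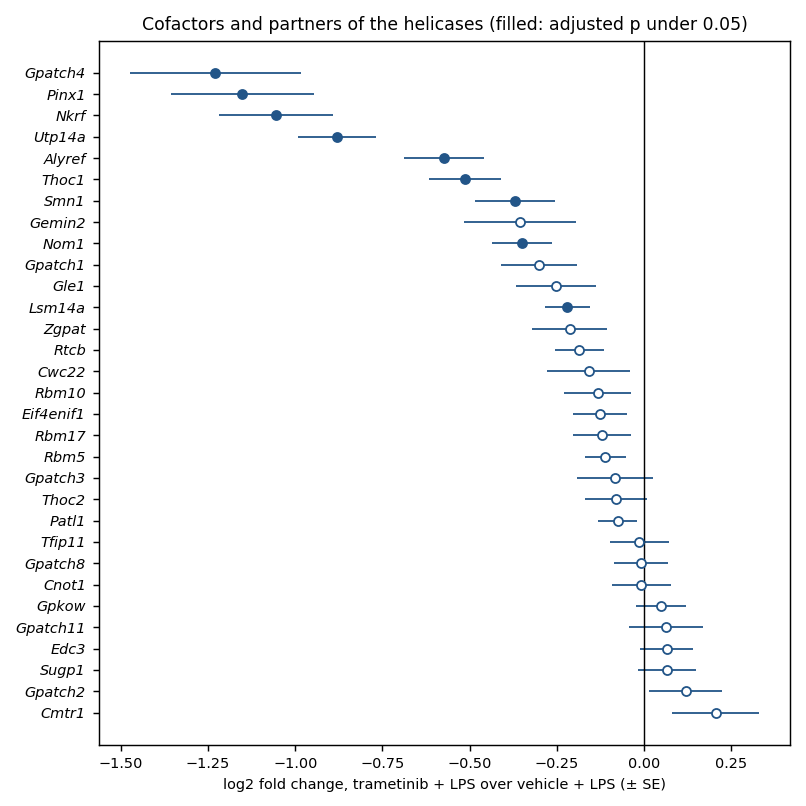
Log2 fold change of trametinib + LPS over vehicle + LPS (x axis) with its standard error for the 31 tested cofactors and partners of the helicases (y axis), with filled points for an adjusted p under 0.05. Gpatch4, Pinx1, Nkrf and Utp14a lie lowest, at −1.23 to −0.88, and the highest, Cmtr1 at 0.21, did not pass.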

How the data were processed

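RNA of 6 macrophage cultures was sequenced from ribosomal-RNA-depleted libraries. The authors deposited whole-number read counts per gene, with no normalization. The submitters' processing notes name HISAT2 2.1.0, featureCounts 1.6.4, DESeq2 1.24.0, R 3.6.0 and mm10, while settings for strand and multi-mapping reads are not stated there. The 310 repeated entries were identical and were dropped, and 25033 of 25044 identifiers were found in GENCODE mouse release M21. Library totals limit precision: SEs of low genes are wide.

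Genes were kept by filterByExpr and scaled by TMM. Groups were compared with edgeR 4.0.16 (quasi-likelihood F test, robust, group as the only term, R 4.3.3), with Benjamini-Hochberg adjustment over 11286 genes and a threshold of 0.05. SE is the log2 fold change over the square root of F. CPM use TMM-scaled library sizes, and levels per kilobase divide by all exon bases of a gene. The procedure was tested on simulated counts drawn independently for each library, which cannot cover a link between libraries of the same replicate number. The members, classes and lists were chosen with earlier results of these data known. The rule named every member, with values by library for the 4 lowest and 4 highest calls, the 3 smallest p of each class and 7 fixed genes, and further members were described after their values were seen. Of the other lists it took the 2 smallest p in each direction and partners of described members, though not every such partner is given.

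The labels tie no replicate to an animal, so p values cover only the spread between these libraries, which may be technical. Deviations from group means correlated at 0.339, 0.393 and 0.285 between libraries of the same replicate number, so the numbers may pair the samples, a hint from the data. The values otherwise, −0.0724 to −0.223, are no separate evidence, because deviations from a group mean cancel out within the group. The replicate block was an alternative. The others were DESeq2 size factors in edgeR, TMM without the 10 most abundant and mitochondrial genes, no filter, at least 1 CPM in 3 libraries, DESeq2 1.42.0, limma-voom (limma 3.58.1), each library left out, 2 changes of class and a floor of 600 counts. Python 3.11.15, pandas 2.3.3 and matplotlib 3.10.9 were used for tables and figures.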

Additional observations from a re-analysis of the deposited data

How the results depend on the processing

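Of the counts of members that fell or rose, those of each class stayed within 1.5 times the reported count under all 13 alternatives of the fit and the changes of class and floor. Across libraries left out, 16 to 20 members fell and 2 to 4 rose, with 10 nucleolar, 4 to 7 splicing and 2 to 3 other helicases lower. With Dhx15 counted as nucleolar, 12 nucleolar and 4 splicing genes fell. Of the 21 calls 18 passed under every alternative (10 nucleolar, 4 splicing and 4 other), and Ddx39, Ddx55 and Dhx40 did not. The replicate block added Dhx8 and changed no other call among the members. Among related RNA helicases 3 rose and 6 fell with the replicate block. With libraries left out 1 to 2 rose and 2 to 5 fell, and with DESeq2 3 fell. Over all genes, 1068 to 2210 rose and 1360 to 2453 fell with libraries left out, from 1787 and 2082. Among members that did not pass, log2 fold changes turned sign when libraries were left out: Ddx17 ran from −0.028 to 0.086, Ddx20 from −0.023 to 0.089, Ddx3x from −0.055 to 0.145, Ddx50 from −0.0013 to 0.112, Ddx52 from −0.073 to 0.0037, Ddx59 from −0.136 to 0.120 and Dhx36 from −0.104 to 0.023. Ddx59 came to −0.0033 with no filter. The cause of these changes was not tested.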

Other observations

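Genes around Ddx4 were looked at after its value was seen. Of 6 other tested genes within 500 kb of Ddx4, Slc38a9, 8.28 kb away, rose (log2 fold change 0.38, adjusted p 0.00530). Il6st (0.71) and Ankrd55 (1.40) also rose, while Plpp1 and Dhx29 fell (−1.83 and −0.70) and Mtrex did not pass (−0.22). Ankrd55 had a low mean level, at 0.70 CPM with vehicle and 1.86 CPM with trametinib. Among all tested genes 34.3% passed in either direction. Around Ddx60, Cbr4 and Palld did not pass (adjusted p 0.191 and 0.0762). Around Ddx21, its near neighbours Kif1bp and Ddx50, 1.79 and 13.6 kb away, had log2 fold changes of 0.19 and 0.05 and did not pass. Srgn and Hk1, 52.8 and 200.3 kb away, rose (0.43 and 0.44, adjusted p 0.00777 and 0.00453), and Supv3l1, a mitochondrial RNA helicase 131 kb away, fell by 0.47 (adjusted p 0.0406), while the other 7 tested genes within 500 kb did not pass. The Supv3l1 call was lost with DESeq2 (0.0557) and on leaving out any 1 library but the third of each group (0.0752 to 0.125).

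Mitochondrially encoded genes took 1.76% of the counts in trametinib replicate 2 and 0.717% to 0.871% in the other 5 libraries.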
